A study of Mus with 10 samples.

Results

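Ttn, the gene for titin, was 1 of the 24564 genes in the table of liver type 1 innate lymphoid cells (ILC1s) and 1 of the 11463 genes that passed the filter on low counts. It was selected on its lower level in Ncr1gfp/gfp than in Ncr1+/+ ILC1s in these same libraries, so its own difference between the genotypes is given as a description without a test. The study sorted ILC1s from the liver of C57BL/6 mice to ask how NKp46, the activating receptor encoded by Ncr1, acts in these cells. Polyadenylated RNA was sequenced from 5 libraries of Ncr1+/+ ILC1s and 5 libraries of Ncr1gfp/gfp ILC1s, from male or female mice 6 to 8 weeks old. In Ncr1gfp/gfp mice a gfp reporter stands in the Ncr1 gene on both alleles, and no other allele or agent was named for either group. The study does not say whether the groups were littermates, so differences of genotype and of breeding colony cannot be told apart. Lineage-negative NK1.1+ CD49b- CD49a+ cells were sorted as ILC1s, with NKp46 as a further gate in Ncr1+/+ mice and GFP in its place in Ncr1gfp/gfp mice. The study speaks of RNA pools but does not state how many mice went into a library, so the spread reported is that between libraries, which may be technical.

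Titin is the giant protein of striated muscle that spans from the Z-disc to the M-line of the sarcomere. It holds the thick filament in place, acts as a molecular spring in the I-band and carries a kinase domain near its M-line end. Outside muscle, titin has been described in non-muscle cells, lymphocytes included, where much less is known of what it does.

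Library totals ranged from 17996935 to 22623133 counts in Ncr1+/+ and from 15796253 to 21975879 in Ncr1gfp/gfp ILC1s. Ncr1, the disrupted gene, stood at 1913 to 2144 CPM (counts per 1000000 after TMM scaling of library sizes) in Ncr1+/+ libraries and at 141 to 356 in Ncr1gfp/gfp libraries, 12.7% of the Ncr1+/+ mean. Across all tested genes, 23 were called higher and 61 lower in Ncr1gfp/gfp ILC1s by the quasi-likelihood test of edgeR (p after Benjamini-Hochberg correction below 0.05 and a fold above 1.5 or below 0.7). These calls make up 0.201% and 0.532% of the tested genes, 0.733% together, and the median log2 fold change of all tested genes was 0.0027. The 9 ILC1 markers found in the table summed to 5981 to 6373 CPM in Ncr1+/+ and 4344 to 4577 CPM in Ncr1gfp/gfp libraries, with Ncr1, Il7r and Tmem176a called lower. Without Ncr1 itself the other 8 summed to 4037 to 4290 CPM in Ncr1+/+ and 3988 to 4292 CPM in Ncr1gfp/gfp libraries, ranges that overlapped. T cell markers summed to 461 to 579 and 633 to 835 CPM, most of it Cd3g (501 ± 53.1 and 687 ± 74.6 CPM), whose fold was below the limit for a call. Without Cd3g they summed to 9.14 to 26.6 and 36.8 to 100.5 CPM, with Cd3e and Cd8a called higher among the 5 T cell markers tested. NK cell markers summed to 113 to 135 and 144 to 232 CPM, with Itgam called higher among 8 tested. Most of this difference lay in Itgam (49.4 ± 6.50 and 96.0 ± 18.7 CPM). Of the others tested, S1pr5 and Ly6c2 were lower in sign and the rest higher. Hepatocyte markers summed to 135 to 182 and 123 to 211 CPM, most of it Trf (131 to 146 and 119.7 to 145 CPM). Alb, another hepatocyte marker, had 0.971 to 28.03 and 1.23 to 37.96 CPM. B cell markers summed to 0.561 to 5.99 and 2.49 to 4.98 CPM, and Kupffer cell and macrophage markers to 7.40 to 45.7 and 5.94 to 38.5 CPM. Itga1, which encodes the CD49a of the gate, was at 732 to 805 CPM in Ncr1+/+ and 928 to 1012 CPM in Ncr1gfp/gfp libraries, and Eomes, a defining NK cell factor, at 5.85 to 8.35 and 5.06 to 17.7 CPM. The part of these marker differences in the Ttn values was not tested.

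Ttn was read at depth in every library. The Ncr1+/+ libraries 1 to 5 held 3989, 3848, 4207, 4198 and 3617 Ttn reads, and the Ncr1gfp/gfp libraries held 2272, 1903, 1659, 1807 and 1699. In CPM these were 224, 170, 210.3, 212 and 197 in Ncr1+/+ and 144, 87.0, 87.8, 107 and 101 in Ncr1gfp/gfp ILC1s. All 5 Ncr1+/+ libraries thus lay above all 5 Ncr1gfp/gfp libraries, with replicate 1 the highest of each genotype and replicate 2 the lowest. Such a separation in CPM was found for 356 genes, 3.11% of those tested, and nothing is read from it for Ttn, which was chosen in this contrast.

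Mean Ttn was 202 ± 20.6 CPM in Ncr1+/+ and 106 ± 23.4 CPM in Ncr1gfp/gfp ILC1s (SD, n = 5 each). The Ncr1gfp/gfp level was 52.1% of the Ncr1+/+ level, a 1.92-fold difference, and the fitted log2 fold change was -0.94 (SE 0.11). The nearest libraries of the genotypes, Ncr1+/+ replicate 2 and Ncr1gfp/gfp replicate 1, were 25.5 CPM apart, which is close to the SD within either genotype. In RNA from a sorted population, fewer cells that express Ttn and less Ttn RNA per cell cannot be told apart.

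**Figure D1:**
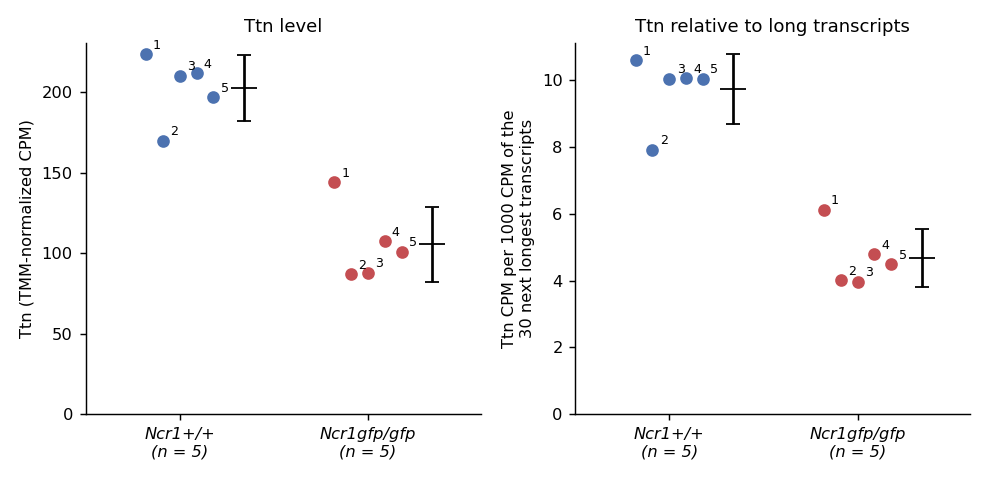
Ttn in each library, numbered by replicate, as CPM (left) and as Ttn CPM for every 1000 CPM of the 30 next longest transcripts (right). Horizontal bars give the mean and SD of 5 libraries, and the lowest Ncr1+/+ library is at 170 CPM and the highest Ncr1gfp/gfp library at 144 CPM.

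The libraries of a genotype differed among themselves in Ttn. Its coefficient of variation was 10.2% among Ncr1+/+ and 22.1% among Ncr1gfp/gfp libraries, where replicate 1 stood above the other 4. The biological coefficient of variation fitted to Ttn was 12.3%, beside 13% for the median tested gene, and the counting part at its mean count was 1.85%. Without Ncr1gfp/gfp replicate 1 the log2 fold change of Ttn was -1.08, and without Ncr1gfp/gfp replicate 2 it was -0.88.

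The length of the gene sets how its reads are to be read. The deposited table places Ttn on the minus strand of chr2:76542041-76820604, a span of 278564 bases of which 104320 (37.4%) are exonic. The study names mm10 as its mapping genome. The deposited start of Ttn differs from that in RefSeq for GRCm38.p6, and the table names no build for its coordinates. Ttn was first in exon length among the tested genes. In CPM it ranked 1074 of 11463 genes in Ncr1+/+ and 2273 in Ncr1gfp/gfp ILC1s, above the median gene at 29.5 and 29.6 CPM.

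Per kilobase of annotated exon Ttn was low. It stood at 1.94 ± 0.198 CPM per kb in Ncr1+/+ libraries (1.63 to 2.14) and at 1.01 ± 0.224 in Ncr1gfp/gfp libraries (0.834 to 1.38), with a median gene of 11.3 in both genotypes. On this scale it ranked 9517 and 10183 of 11463. The exon length is that of all annotated exons together, and which Ttn isoform the cells made cannot be read from gene counts, so the level per kb of a shorter isoform would be higher. Gene counts also do not show how much of this length the reads covered. Levels and ranks per kb therefore describe reads, not numbers of Ttn molecules.

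Long transcripts were set beside Ttn because its length is exceptional. Of the 30 next longest tested genes, all with at least 15586 exonic bases, 20 were higher and 10 lower in sign in Ncr1gfp/gfp ILC1s, with a median log2 fold change of 0.07. Kalrn, a guanine nucleotide exchange factor read at 0.882 to 3.98 CPM in Ncr1+/+ and 0 to 0.476 CPM in Ncr1gfp/gfp libraries and named here after its values were seen, was the 1 gene of the 30 called in either direction, where 0.733% of all tested genes were called, and the 1 gene with a decrease as large as that of Ttn.

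The most abundant of these long transcripts are set beside Ttn as a description only, since Ttn was selected on its difference. The 20 genes with a mean of at least 50 CPM had log2 fold changes between -0.18 and 0.21 (SE 0.04 to 0.12), against -0.94 for Ttn. Kcnq1ot1, a long non-coding RNA with 83437 exonic bases and the nearest to Ttn in length, had 290 ± 60.6 CPM in Ncr1+/+ and 335 ± 43.0 CPM in Ncr1gfp/gfp ILC1s. Syne1, which encodes the giant nuclear envelope protein nesprin-1, had 242 ± 21.1 and 266 ± 19.0 CPM.

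Among the other genes of the 10 longest, Macf1, a linker of actin and microtubules, had a log2 fold change of 0.11, and Syne2, the gene for nesprin-2, of -0.18. Neat1, the non-coding RNA of paraspeckles, had 0.08, Gm15506 -0.05 and Kmt2d, a histone methyltransferase, -0.04, while adjusted p by edgeR's quasi-likelihood test ranged from 0.189 to 0.976 over Macf1, Syne2, Neat1, Gm15506 and Kmt2d. Itsn1, an endocytic scaffold, was at 29.4 ± 3.62 and 40.0 ± 4.71 CPM (log2 fold change 0.44, adjusted p = 0.040 by edgeR's quasi-likelihood test), below the fold set for a call and opposite in sign to Ttn.

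The 30 long transcripts together took 20856 ± 709 CPM in Ncr1+/+ and 22475 ± 694 CPM in Ncr1gfp/gfp ILC1s, and the ranges of 19630 to 21465 and 21664 to 23561 did not overlap. Much of this sum was Ahnak, which encodes a giant scaffold protein at the plasma membrane, with 8045 ± 501 and 9182 ± 614 CPM (log2 fold change 0.19, adjusted p = 0.033 by edgeR's quasi-likelihood test, below the fold set for a call). Without Ahnak, named here after its values were seen, the other 29 took 12811 ± 280 and 13293 ± 377 CPM, and the genotypes overlapped. For every 1000 CPM of these transcripts Ttn had 10.6, 7.91, 10.0, 10.0 and 10.0 CPM in Ncr1+/+ libraries 1 to 5 and 6.12, 4.01, 3.96, 4.79 and 4.49 in Ncr1gfp/gfp libraries 1 to 5. These ratios carry the same difference on which Ttn was selected.

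**Figure D2:**
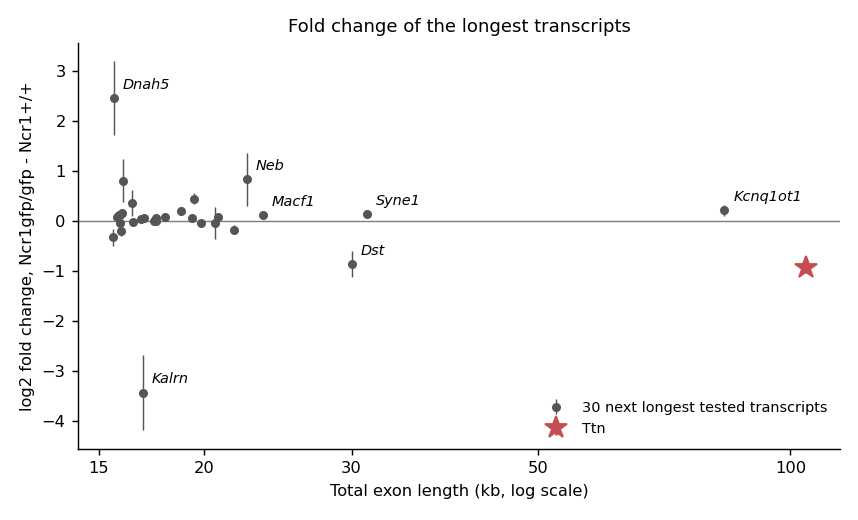
Log2 fold change (Ncr1gfp/gfp minus Ncr1+/+) against total exon length in kb on a log scale, for Ttn (star) and the 30 next longest tested genes (points), with bars for the standard error. Ttn lies at -0.94 while Kcnq1ot1, the nearest in length, lies at 0.21.

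The partners of titin in the sarcomere were for the most part at the edge of detection. Of 26 genes for Z-disc partners, 10 were tested, and the 16 others averaged at most 0.570 CPM. The most abundant per kb were Actn4 (81.3 CPM per kb over all libraries) and Actn1 (22.8), the non-muscle alpha-actinins that crosslink actin, and the PDZ-LIM protein gene Pdlim5 (9.53), against 1.48 for Ttn. Their log2 fold changes were -0.04, 0.24 and 0.04, and none of these was called.

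Nebl, which encodes nebulette, an actin-binding relative of nebulin at the Z-disc, rose while Ttn was lower. It had 10.99, 11.8, 8.30, 10.1 and 16.4 CPM in Ncr1+/+ and 14.6, 24.2, 17.7, 19.6 and 19.8 CPM in Ncr1gfp/gfp libraries 1 to 5, a log2 fold change of 0.74 (SE 0.17, adjusted p = 0.031 by edgeR's quasi-likelihood test). Ncr1+/+ replicate 5 lay above Ncr1gfp/gfp replicate 1, so the genotypes overlapped. The call was lost in 8 of 10 fits that each left out a library: the adjusted p was 0.0699, 0.0590, 0.0930 and 0.09002 without Ncr1+/+ replicates 1 to 4, and 0.104, 0.0501, 0.0650 and 0.0639 without Ncr1gfp/gfp replicates 2 to 5.

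Nebl was the only gene that edgeR's quasi-likelihood test called among the 77 tested genes of 7 lists around titin, against a background of 0.733% of all tested genes called in either direction. At an unadjusted p below 0.05 there were 10 of these 77 genes (12.99%), beside 11.4% of all tested genes, and the median log2 fold change over the 77 was -0.02.

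Of the muscle genes of the Z-disc, Actn2, the sarcomeric alpha-actinin that binds the titin Z-repeats, had 1.35 ± 0.519 and 2.78 ± 0.456 CPM (adjusted p = 0.313 by edgeR's quasi-likelihood test). Neb, which encodes nebulin, had 1.45 ± 0.778 and 2.58 ± 1.48 CPM (adjusted p = 0.614 by the same test). Both were higher in sign in Ncr1gfp/gfp ILC1s, at read numbers far below those of Ttn. Per kb of exon, Actn2 had 0.452 and 0.930 CPM and Neb 0.0644 and 0.115 CPM, against 1.94 and 1.01 for Ttn.

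None of the 7 tested genes of 19 I-band and A-band partners was called by edgeR, DESeq2, edgeR's likelihood ratio test or limma-voom, and 1 had an unadjusted p below 0.05 in edgeR's quasi-likelihood test. Per kb the leading genes were the HSP90 chaperones Hsp90ab1 (368 CPM per kb) and Hsp90aa1 (53.2) and the actin pointed-end capping gene Tmod3 (42.0), all far above Ttn. Their log2 fold changes were -0.21, -0.22 and -0.02. Capn3, the muscle calpain that binds titin, had 2.56 ± 0.439 and 2.23 ± 0.888 CPM, and Ankrd23, a muscle ankyrin repeat protein of the titin I-band, had 18.8 ± 2.10 and 18.0 ± 3.07 CPM.

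The list of M-line partners and of the titin kinase pathway had 7 tested genes of 18, with 0 calls by any of these 4 tests and 1 gene at an unadjusted p below 0.05 in edgeR's quasi-likelihood test. Sqstm1, an autophagy receptor gene of this pathway, stood at 127 CPM per kb, far above Ttn, with a log2 fold change of -0.21. Nbr1, the partner of the titin kinase in autophagy, and Srf, the transcription factor placed downstream of that kinase in muscle, were chosen for their roles after their values were seen. Nbr1 had 168 ± 11.1 and 168 ± 9.05 CPM, and Srf had 91.0 ± 8.37 and 82.9 ± 3.02 CPM (adjusted p = 0.514 by edgeR's quasi-likelihood test). Alpk3, a muscle alpha-kinase, stood at 2.44 ± 1.76 and 3.57 ± 1.91 CPM.

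**Figure D3:**
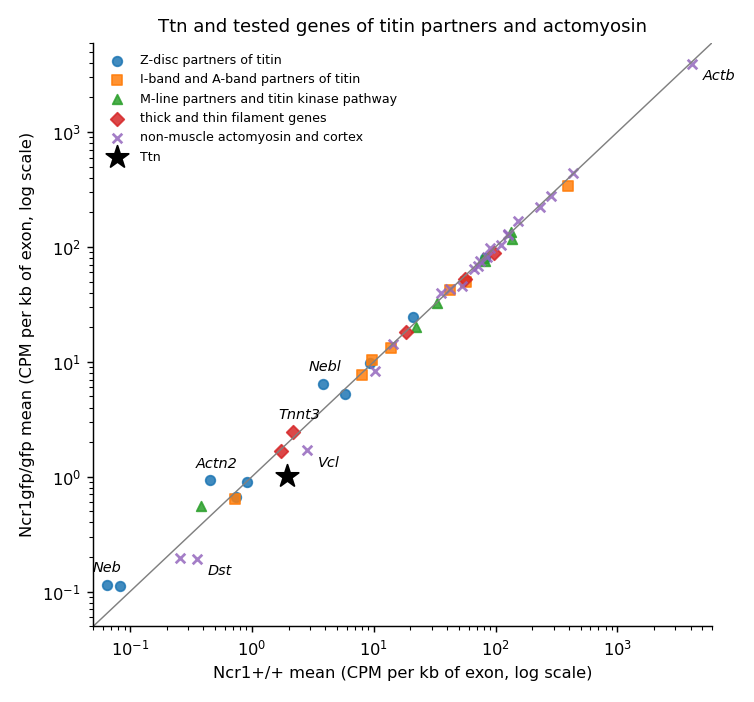
Mean level per kb of exon in Ncr1gfp/gfp against Ncr1+/+ ILC1s, both on log scales, for Ttn (star) and the tested genes of 5 lists of titin partners and actomyosin genes. The line marks equal levels. Ttn lies below it at 1.94 and 1.01 CPM per kb, and Nebl lies above it.

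Most defining genes of muscle, the tissue that makes most titin, were at or near 0 in CPM. Of 27 marker genes of skeletal, cardiac and smooth muscle, 12 had no read in any library and 22 stayed under 1 CPM in every library, where 3 counts correspond to 0.132 to 0.190 CPM. The markers summed to 3.53 to 19.3 CPM in Ncr1+/+ and 4.32 to 6.01 CPM in Ncr1gfp/gfp libraries, against 87.0 to 224 CPM for Ttn. The highest sum was that of Ncr1+/+ replicate 3, with 9.20 CPM of the cardiac actin gene Actc1 and 6.00 CPM of the skeletal actin gene Acta1, and without this library the log2 fold change of Ttn was -0.93. Per kb of exon over all libraries, the troponin T gene Tnnt3 stood above Ttn (2.31 against 1.48 CPM per kb) and the other muscle markers below it. In Ncr1+/+ replicate 3, Actc1 (6.31 CPM per kb), Acta1 (3.82) and Tnnt3 (2.32) stood above Ttn (2.02). The part of muscle RNA in the Ttn values was not tested.

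Of 27 genes for thick and thin filaments, 5 were tested and 0 were called by edgeR, DESeq2, the likelihood ratio test or limma-voom, with 0 at an unadjusted p below 0.05 in edgeR's quasi-likelihood test. The widely expressed tropomyosins led the list per kb, Tpm4 with 92.6, Tpm3 with 54.4 and Tpm1 with 18.3 CPM per kb. Their log2 fold changes were -0.14, -0.09 and -0.02.

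The non-muscle actomyosin and cortex list was the best expressed, with 21 of 26 genes tested. None was called by edgeR's quasi-likelihood test, 4 had an unadjusted p below 0.05, and DESeq2 and the likelihood ratio test each called 2, Vcl and Dst, while limma-voom called 0. Actb (4009 CPM per kb), Myh9, the non-muscle myosin heavy chain (436), and Msn, the membrane-cortex linker moesin (281), had log2 fold changes of -0.06, 0.03 and -0.02.

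Vcl and Dst were lower in sign together with Ttn. Vcl, named after its values were seen, encodes vinculin of focal adhesions and had 16.3, 15.4, 14.6, 14.3 and 12.8 CPM in Ncr1+/+ and 5.02, 6.99, 8.68, 10.6 and 13.1 CPM in Ncr1gfp/gfp libraries (log2 fold change -0.73, adjusted p = 0.078 by edgeR's quasi-likelihood test). Dst encodes dystonin, a giant cytoskeletal linker that is also among the 10 longest transcripts, and had 10.6 ± 1.17 and 5.81 ± 2.67 CPM without overlap (log2 fold change -0.87, adjusted p = 0.116 by the same test). In Ncr1gfp/gfp replicate 1, where Ttn was highest of its genotype, both Vcl and Dst were lowest.

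Splicing factors decide which of its many exons titin keeps. Of 24 regulators of titin splicing and muscle transcription, 16 were tested, 0 were called by edgeR, DESeq2, the likelihood ratio test or limma-voom, and 1 had an unadjusted p below 0.05 in edgeR's quasi-likelihood test. Mbnl1 (347 CPM per kb), Hnrnpl (186) and Ptbp3 (97.1), which encode RNA-binding splicing factors, had log2 fold changes of 0.14, -0.00049 and 0.02. Rbm20, the splicing factor that sets titin isoforms in heart and named here for that role, had 0 counts in all 10 libraries.

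Genes next to Ttn on chromosome 2 were read to ask whether the difference extended along the locus. No gene in the table overlaps Ttn, and Plekha3 and Ccdc141 flank it both in the deposited table and in the RefSeq annotation of GRCm38.p6. Plekha3, a phosphoinositide-binding protein of the Golgi that ends 6.65 kb from Ttn, had 53.8 ± 2.23 and 51.998 ± 6.82 CPM. Ccdc141 had 13 counts in all, in 1 library.

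Of 16 genes of the locus, 11 were tested, with 0 calls by edgeR, DESeq2, the likelihood ratio test or limma-voom and 0 at an unadjusted p below 0.05 in edgeR's quasi-likelihood test. Their median log2 fold change was -0.02. Prkra, which encodes an activator of the kinase PKR, had a log2 fold change of 0.31, the peroxisomal lipid enzyme gene Agps of 0.13, the integrin alpha-4 gene Itga4 of 0.09, Cerkl of 0.06 and the ubiquitin-conjugating enzyme gene Ube2e3 of 0.02. Rbm45, Fkbp7, Cwc22, which encodes a spliceosome factor, and Sestd1 had -0.02, -0.13, -0.14 and -0.16.

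Pde11a, a phosphodiesterase gene 365 kb from Ttn, came nearest to it in size of difference at a log2 fold change of -0.91, but with an SE of 0.44 and an adjusted p of 0.455 by edgeR's quasi-likelihood test. It had 1.23, 3.84, 5.95, 5.90 and 4.73 CPM in Ncr1+/+ and 0.444, 2.29, 2.91, 2.62 and 3.27 CPM in Ncr1gfp/gfp libraries. The genotypes overlapped.

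**Figure D4:**
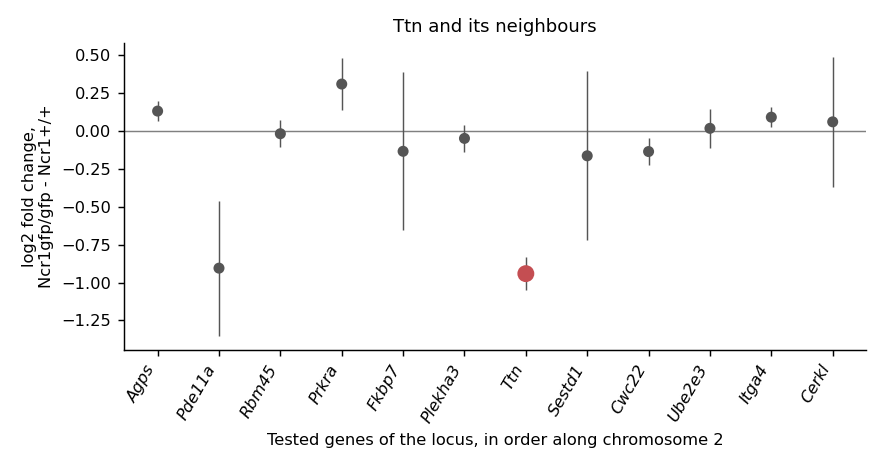
Log2 fold change (Ncr1gfp/gfp minus Ncr1+/+) of Ttn and the 11 tested genes of its locus in their order along chromosome 2, with bars for the standard error. Plekha3, next to Ttn, lies at -0.05 and Ttn at -0.94.

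The genes whose levels followed Ttn most closely over the 10 libraries were named by Pearson's r of log2 CPM, as a description that the genotype difference itself shapes. The 5 most like Ttn were Pskh1 (r = 0.96), Il2ra (0.95), Cdon (0.94), Il18r1 (0.94) and Tiam2 (0.94), which encode a serine kinase, the IL-2 receptor alpha chain, a cell adhesion co-receptor of the Hedgehog pathway, the IL-18 receptor chain and an exchange factor for Rac. The 5 most opposite were Nnt (-0.94), Traf3ip1 (-0.93), Cbfa2t3 (-0.93), Mfhas1 (-0.93) and Trim9 (-0.92). Over all 11462 other tested genes, 31 had r above 0.9, 8 had r below -0.9, and the median was -0.003.

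Il2ra stood at 42.1, 33.4, 46.7, 47.1 and 47.9 CPM in Ncr1+/+ and at 19.8, 16.3, 14.3, 20.9 and 20.8 CPM in Ncr1gfp/gfp libraries, so that, as with Ttn, replicate 2 was the lowest Ncr1+/+ library. Il18r1 had 174, 134, 166, 147 and 149 CPM in Ncr1+/+ and 79.9, 51.5, 51.9, 85.4 and 91.3 CPM in Ncr1gfp/gfp libraries. As for Ttn, the lowest Ncr1gfp/gfp values of Il18r1 were in replicates 2 and 3, whereas replicate 1, the highest for Ttn, was not the highest for Il18r1 or Il2ra.

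Pskh1, the closest by r, differed far less between the genotypes than Ttn, at 76.1 ± 3.19 and 64.1 ± 4.62 CPM (log2 fold change -0.25, with overlap). As for Ttn, its highest Ncr1gfp/gfp library was replicate 1, with 72.1 CPM, whereas its Spearman correlation with Ttn of 0.83 was the lowest of the 5. Cdon had 41.5 ± 3.93 and 28.3 ± 2.68 CPM, and Tiam2 had 42.0 ± 4.40 and 26.4 ± 3.01 CPM.

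Nnt, the mitochondrial transhydrogenase known for a deletion in some C57BL/6 substrains, mirrored Ttn with 23.3, 34.4, 28.6, 28.8 and 33.3 CPM in Ncr1+/+ and 45.5, 56.2, 53.3, 48.5 and 43.6 CPM in Ncr1gfp/gfp libraries. Its lowest library was Ncr1+/+ replicate 1, where Ttn was highest, and its highest was Ncr1gfp/gfp replicate 2, where Ttn was lowest. When each library was taken as its deviation from the genotype mean, r with Ttn was 0.84 for Pskh1 and -0.86 for Trim9 but 0.64 for Il2ra, 0.68 for Il18r1 and -0.67 for Nnt.

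**Figure D5:**
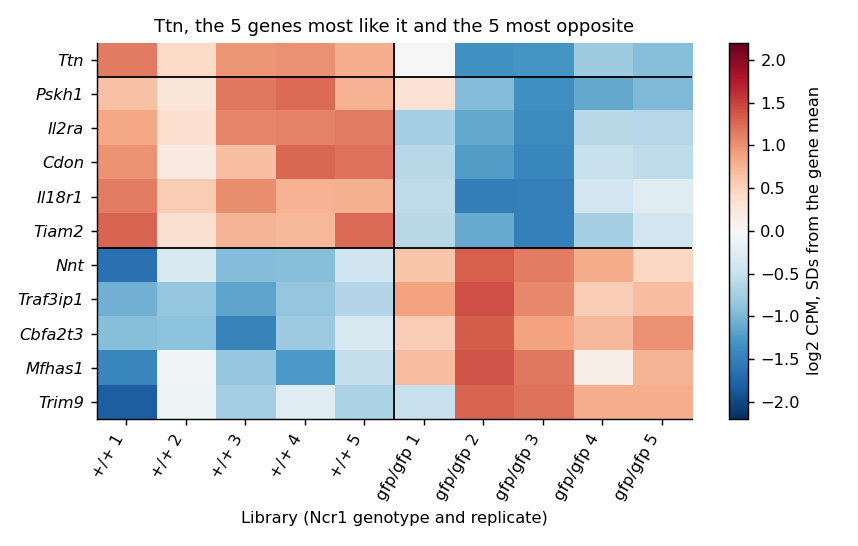
Level of Ttn, of the 5 genes most like it and of the 5 most opposite to it in each library, as log2 CPM in SDs from the mean of the gene over all 10 libraries (colour). Most genes of the upper block are high (red) in Ncr1+/+ and low (blue) in Ncr1gfp/gfp libraries and most of the lower block the reverse, while Pskh1 and Trim9 overlap between the genotypes through Ncr1gfp/gfp replicate 1.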

How the data were processed

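The counts were deposited as 1 table of genes by libraries. Per the study's methods, the authors made cDNA from 2 ng of RNA with a SMART-Seq v4 kit for polyA RNA-seq, sequenced single reads of 51 cycles, trimmed them with Trimmomatic and FASTP, mapped them to mm10 with STAR (020201) and counted reads per gene with HTSeq (0.6.0, default parameters). The labelled genotype set the group of each library. The deposited counts were filtered with filterByExpr, scaled with TMM and fitted with edgeR 4.0.16 (quasi-likelihood, genotype as the only term, R 4.3.3), with Benjamini-Hochberg adjustment over 11463 genes. CPM per kb used the exon length in the deposited table. Gene names and neighbours were matched to RefSeq for GRCm38.p6, whose coordinates differ from those deposited and were not printed. The 3 largest members per kb of each list, called members, muscle members, tested locus genes, the 10 longest transcripts and the 5 most like and opposite genes were named (likeness from log2 CPM with a prior count of 2). Ttn, the lists and the rules were chosen with earlier results of these data known. Depths ran from 15796253 to 22623133 counts, and the counting error of Ttn at its mean count over all libraries was 1.85%. No pair of libraries of 1 genotype looked like 1 library deposited again (chi-square per gene 9.18 to 24.0 over 20 pairs), which says nothing of whether they came from separate mice. Alternatives were DESeq2 1.42.0, limma-voom 3.58.1 with sample weights, the likelihood ratio test, other scalings, filters and thresholds, a replicate block and leaving out each library. Of the genes these rules name, 2 are not reported here. No sequence, isoform or single-cell data were analysed here.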

Additional observations from a re-analysis of the deposited data

Results flagged for a closer look

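In 132 groups of 5 libraries, made from 51 named genes and the marker and length sums in each genotype, the highest or lowest library was compared with its nearest neighbour. In 15 of them the gap exceeded Dixon's 95% critical value of 0.71 of the range, where chance alone flags about 1 in 20 groups (6.6 of 132). Ttn itself was not among the 15.

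Pskh1, named for its correlation with Ttn, was high in Ncr1gfp/gfp replicate 1 (72.1 CPM, next library 63.1). Of the long transcripts, Kcnq1ot1 was low in Ncr1+/+ replicate 1 (184.8 CPM, next 296) and high in Ncr1gfp/gfp replicate 5 (408 CPM, next 327). Syne2 was low in Ncr1gfp/gfp replicate 2 (60.2 CPM, next 77.9). The sum of the 30 long transcripts was low in Ncr1+/+ replicate 5 (19630 CPM, next 20974). Of the titin locus, Prkra was low in Ncr1+/+ replicate 4 (6.46 CPM, next 9.90), Sestd1 was high in Ncr1+/+ replicate 2 (3.75 CPM, next 1.46) and Itga4 was high in Ncr1gfp/gfp replicate 3 (349.99 CPM, next 312). Hsp90aa1, of the I-band partners, was high in Ncr1gfp/gfp replicate 4 (235 CPM, next 128).

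Of marker sums, the neutrophil sum was high in Ncr1gfp/gfp replicate 3 (10.2 CPM, next 1.21), as was the hepatocyte sum (211 CPM, next 147), and the hepatocyte sum was also high in Ncr1+/+ replicate 1 (182 CPM, next 146). The skeletal and cardiac muscle sums were high in Ncr1+/+ replicate 3 (9.65 CPM, next 4.41, and 9.35 CPM, next 1.91), and the erythroid sum in Ncr1+/+ replicate 5 (9.63 CPM, next 1.85). The log2 fold change of Ttn was -0.91 without Ncr1+/+ replicate 1, -0.93 without Ncr1+/+ replicate 3, -0.95 without Ncr1+/+ replicate 5 and -0.88 without Ncr1gfp/gfp replicate 3.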

How the results depend on the processing

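The log2 fold change of Ttn stayed between -0.98 and -0.94 under the other tools, scalings, filters and ways of averaging, was -0.96 with a replicate block, and ranged from -1.08 to -0.88 when each library was left out. The count of genes called, 84, was 128 with DESeq2, 138 with the likelihood ratio test, 131 with no filter on low counts, 155 by the adjusted p alone (58.1% lower against 72.6%) and 23 at an absolute log2 fold change above 1, and it ranged from 60 to 98 when each library was left out. Calls in the gene lists, 1 in the report, were 3 with DESeq2 and 3 with the likelihood ratio test (Nebl, Vcl and Dst), 4 with no filter (also Actc1), 0 at an absolute log2 fold change above 1, and 0 to 1 when each library was left out, the 1 being Nebl without Ncr1+/+ replicate 5 or Ncr1gfp/gfp replicate 1, Dst without Ncr1gfp/gfp replicate 3 and Vcl without Ncr1gfp/gfp replicate 5. The median of the longest transcripts was 0.05 to 0.09 with each library left out. Of the 10 genes named for likeness to Ttn, 2 were named by Spearman's correlation and 0 by the correlation of deviations from the genotype means. Same-numbered libraries deviated with correlations from -0.017 to 0.044, and 1 of 5 correlated best with its own number. These values show little shared deviation by number, and the study does not state whether libraries were handled in pairs. The replicate block gave 87 calls, 76 of them shared with the fit without it. Depth limits the muscle genes, where 3 counts are 0.132 to 0.190 CPM. The causes of these changes were not tested.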
